A study of Rattus norvegicus with 2 samples.

Results

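The proteasome genes were followed in liver RNA of male Wistar rats, 22 weeks old, that had been given a propolis extract or saline after an alcohol period meant to produce a fatty liver. Members were the genes whose symbol in the deposited table has the form of a proteasome name, from Psma to Psmg followed by a number. That rule found 53 probes for 45 genes, of which 44 were detected and were read by their brightest probe, among 11912 genes measured in the same way and 41012 probes in all. A probe was taken as detected where the authors' table gives it the letter P on at least 1 array. The gene left out, Psmb11, encodes a catalytic subunit known from thymus and was detected on neither array. In the propolis group, a preparation that the labels abbreviate EEP was given as a 50% ethanol solution at 0.1% of body weight for 4 weeks. The saline group received normal saline at the same share of body weight for 4 weeks, with no ethanol named for it, so that the groups also differed in that solvent. Both groups had first received 52% alcohol at 1% of body weight for 7 weeks, and no group without alcohol was analysed here. RNA of 6 rats per group was pooled onto 1 array, so the comparison has 2 arrays and no replicate check. All differences are in log2 units and are taken as propolis minus saline.

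The proteasome degrades proteins that carry ubiquitin chains. Its core particle, 20S, is a barrel of alpha and beta subunits, the cutting sites sit on the beta subunits encoded by Psmb5, Psmb6 and Psmb7, and the regulatory particle, 19S, recognises, unfolds and feeds in the substrates. Interferon gamma and related signals replace these cutting subunits with the immune forms encoded by Psmb8, Psmb9 and Psmb10 in newly built cores, which changes the peptides made for display on MHC class I, and also raise the activator cap PA28, encoded by Psme1 and Psme2. Immune subunits are abundant in leukocytes and can be induced in hepatocytes.

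The 3 catalytic immune subunits were each between 1.64-fold and 1.94-fold lower in the propolis pool. The subunits that they replace and most other members found by the rule were slightly higher. The PA28 activator genes, named with the immune subunits by the rule, did not share the lower signal. The promoter windows of these 5 immune genes are printed here because the catalytic subunits moved together and the activator genes did not. They span 250 bases before to 50 after the annotated start, 5′ to 3′ on the gene's strand, from RefSeq on the rat assembly GRCr8, and they lie at chr20:4656982-4657281 on the minus strand (Psmb8), chr20:4668750-4669049 on the plus strand (Psmb9), chr19:50743243-50743542 on the minus strand (Psmb10), chr15:33038721-33039020 on the plus strand (Psme1) and chr15:33052702-33053001 on the minus strand (Psme2). Capitals mark matches on either strand to the core of the interferon-stimulated response element (GAAA and GAAA with any 2 bases between), which IRF and STAT factors bind, or to the gamma-activated site, TTCNNNGAA, through which interferon gamma acts.
Psmb8: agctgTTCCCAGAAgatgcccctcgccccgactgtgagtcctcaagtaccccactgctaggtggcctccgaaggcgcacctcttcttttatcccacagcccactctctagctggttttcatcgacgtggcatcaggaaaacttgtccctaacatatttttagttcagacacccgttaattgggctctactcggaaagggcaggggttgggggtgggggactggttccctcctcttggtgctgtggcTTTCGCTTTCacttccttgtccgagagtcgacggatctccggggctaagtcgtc
Psmb9: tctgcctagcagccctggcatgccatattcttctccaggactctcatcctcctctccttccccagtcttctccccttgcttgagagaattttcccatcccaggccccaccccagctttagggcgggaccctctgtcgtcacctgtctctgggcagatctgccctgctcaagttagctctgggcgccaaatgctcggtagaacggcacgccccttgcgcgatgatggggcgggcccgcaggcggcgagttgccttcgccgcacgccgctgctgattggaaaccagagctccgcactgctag
Psmb10: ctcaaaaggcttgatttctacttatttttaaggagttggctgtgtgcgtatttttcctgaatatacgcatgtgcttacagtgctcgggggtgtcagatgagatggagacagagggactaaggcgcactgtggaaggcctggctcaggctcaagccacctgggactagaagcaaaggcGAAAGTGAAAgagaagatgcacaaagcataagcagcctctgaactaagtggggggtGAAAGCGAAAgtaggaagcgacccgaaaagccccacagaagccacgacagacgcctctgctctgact
Psme1: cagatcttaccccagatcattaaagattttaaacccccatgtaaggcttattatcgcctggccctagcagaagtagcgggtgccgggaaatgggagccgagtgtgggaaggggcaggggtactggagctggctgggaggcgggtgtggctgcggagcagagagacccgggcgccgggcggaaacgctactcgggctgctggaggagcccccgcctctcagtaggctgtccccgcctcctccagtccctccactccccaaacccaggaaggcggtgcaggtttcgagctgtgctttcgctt
Psme2: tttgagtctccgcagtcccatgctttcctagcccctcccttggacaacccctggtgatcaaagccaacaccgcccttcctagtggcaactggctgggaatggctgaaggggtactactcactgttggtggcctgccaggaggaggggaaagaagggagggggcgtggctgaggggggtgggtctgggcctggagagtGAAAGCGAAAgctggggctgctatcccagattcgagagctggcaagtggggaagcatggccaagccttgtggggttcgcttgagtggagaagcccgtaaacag

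The response element core was found once in the Psmb8 window, on the opposite strand, with its first base at position -4 from the annotated start. The Psmb10 window held it at positions -73 and -17, and the Psme2 window at position -53. No match lay in the Psmb9 and Psme1 windows, which says only that these letters are not in these 300 bases. The Psme1 window ends in tttcgctt, the start of the opposite-strand match TTTCGCTTTC of Psmb8, and a match that crosses the window's edge would not be seen. Of 33469 rat promoters of the same length, 3.92% held the response element core, against 3 of the 5 immune genes and 4 of the 35 other members whose promoter could be matched by symbol. Those 4 were Psma4, Psmb3, Psmd7 and Psmg4. The gamma-activated site occurred in the Psmb8 window and in those of 3 other members (Psmc6, Psmd3 and Psmd7), against 8.87% of all promoters. The antioxidant response element, TGACNNNGC, which the factors NRF1 and NRF2 bind, occurred in none of the 5 immune windows and in 8 of the 35 others, Psmb5 and Psmb6 among them, against 12.1% of all. The general CCAAT box, CCAAT, occurred in 2 of the 5 (Psmb8 and Psmb9) and in 18 of the 35, against 37.5% of all. All 4 motifs were searched on both strands, and the first pair of motifs can share a few bases but did not overlap in the printed windows. A match describes the letters only. For the response element core, the genes with a match differed by -0.71 (Psmb8), -0.77 (Psmb10) and -0.10 (Psme2). Those without a match in their windows differed by -0.96 (Psmb9) and 0.11 (Psme1). A link between matches and differences was not tested.

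**Figure D1:**
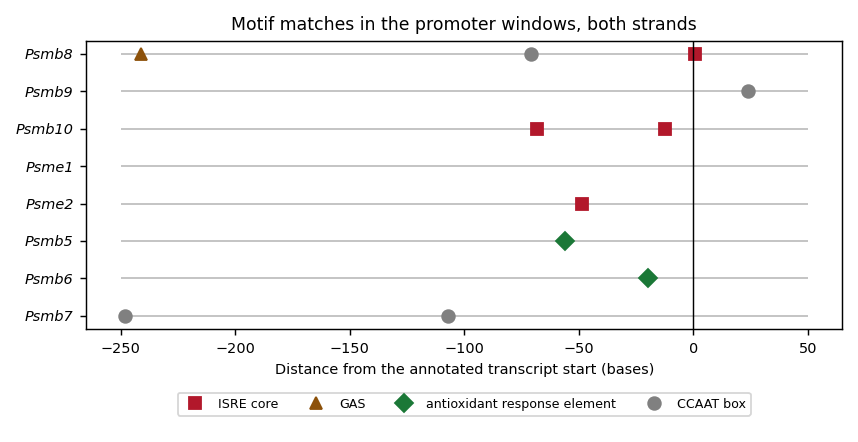
Motif matches in the promoter windows of the 5 immune genes and of Psmb5, Psmb6 and Psmb7, by distance in bases from the annotated transcript start (x axis), with 1 row per gene and 1 symbol per motif. Psmb10 has 2 matches to the response element core, Psmb8 and Psme2 have 1 each, and Psmb9 and Psme1 have none.

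The product of Psmb9 takes the place of the caspase-like cutting subunit, encoded by Psmb6. Psmb9 had a log2 signal of 11.74 in the propolis pool and 12.69 in the saline pool. The difference of -0.96, or 1.94-fold lower, was the lowest of the 44 members, and 5.40% of all genes measured lay at or below it. Psmb10, the immune form of the trypsin-like site, had 12.20 in the propolis pool and 12.96 in the saline pool, a difference of -0.77 or 1.70-fold lower. Psmb8, the immune form of the chymotrypsin-like site, had 11.02 in the propolis pool and 11.73 in the saline pool, a difference of -0.71 or 1.64-fold lower. Signals of all 3 genes were well inside the detected range on both arrays, whose lowest detected value was 3.83 on each. In bulk liver RNA, fewer cells of a type that expresses a gene and less of its RNA per cell cannot be told apart.

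These 3 genes were the only members at least 1.5-fold apart in either direction. Over all genes, 10.2% were lower and 8.07% were higher by that much, so that 3 of 44 members (6.82%) is not more than the background for the family as a whole. Among the 2336 genes with a mean signal of 11 or more, where most of the members lie, 4.41% were at least 1.5-fold lower. No member was 2-fold apart, where 5.08% of all genes were lower and 3.57% higher by 2-fold or more.

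The constitutive counterparts of these subunits did not share the lower signal. Psmb5, which Psmb8 replaces, had 13.88 in the propolis pool and 13.77 in the saline pool, a difference of 0.10. Psmb6, which Psmb9 replaces, had 11.84 in the propolis pool and 11.79 in the saline pool, a difference of 0.04. Psmb7, which Psmb10 replaces, had 12.25 in the propolis pool and 12.09 in the saline pool, a difference of 0.16. Within each array, the signal of an immune subunit relative to its counterpart was therefore lower in the propolis pool by 1.76-fold for Psmb8 over Psmb5, 2.00-fold for Psmb9 over Psmb6 and 1.90-fold for Psmb10 over Psmb7.

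Psme1 and Psme2 form the ring-shaped PA28 activator, which caps the core and opens it. Psme1 had 13.04 in the propolis pool and 12.93 in the saline pool, a difference of 0.11. Psme2 had 12.70 in the propolis pool and 12.79 in the saline pool, a difference of -0.10. The file also holds a probe without a symbol that it describes as similar to proteasome activator subunit 2, and this probe read 12.52 in the propolis pool and 12.62 in the saline pool (-0.10). Such a copy may share sequence with Psme2, and these values cannot separate the transcripts of the copies.

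**Figure D2:**
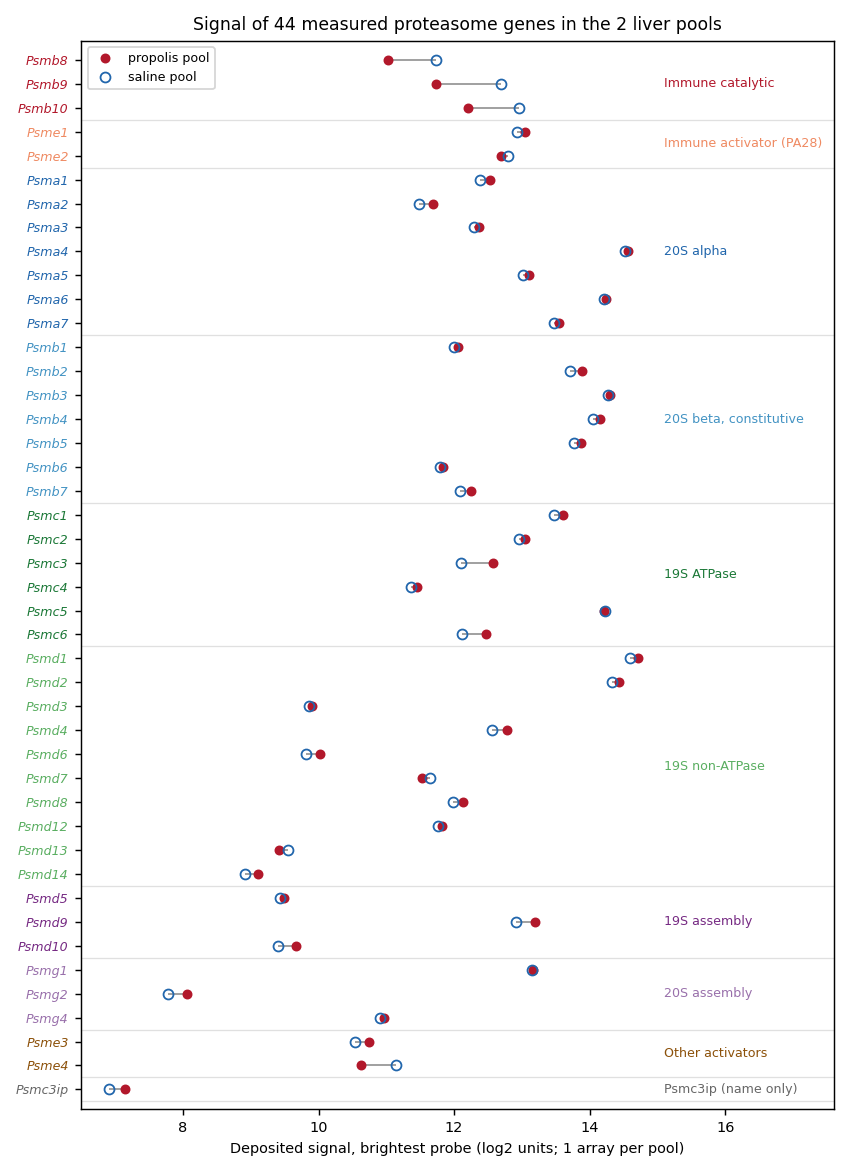
Deposited log2 signal of the brightest probe of each of the 44 measured members (x axis), by role, with filled points for the propolis pool and open points for the saline pool, 1 array each. The propolis points of Psmb8, Psmb9, Psmb10 and Psme4 lie clearly left of their saline points, while for most other members the points nearly touch.

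The size of these differences could be set only against the spread between probes on the same arrays, since the pools were not repeated. Over 249 genes with at least 2 probes detected at a signal of 11 or more, the robust SD of the difference read by 1 probe was 0.10 log2 units, and the gap between the brightest and the next probe had a 95th percentile of 0.39. The gap was at least 0.7 in 3 of these 249 genes. The differences of the catalytic immune subunits were larger than both values. Those of Psme1, Psme2 and Psmb5 were about equal to the robust SD, that of Psmb6 (0.04) was smaller and that of Psmb7 (0.16) was larger. Each of the 5 immune genes had 1 probe, so that none could be checked by a second, and the spread between rats is not part of this value.

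The 7 members with several probes gave similar readings from them. The brightest and next probe differed by 0.01 to 0.23 log2 units, and 6 of the 7 genes had both on the same side of 0. Psmd7, a scaffold subunit of the lid, was the exception, at -0.11 by its brightest probe and 0.13 by the next.

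All 7 alpha subunits of the core, which form its outer rings and gate, were slightly higher in the propolis pool, with a median difference of 0.08. Over all genes 52.4% lay above 0. The highest was Psma2, with 11.68 in the propolis pool and 11.48 in the saline pool (0.20). The lowest was Psma6, with 14.24 in the propolis pool and 14.21 in the saline pool (0.03, and 0.22 by a second probe). All 7 constitutive beta subunits were likewise above 0, between 0.04 for Psmb3 and 0.17 for Psmb2, with a median of 0.10. A further probe, named RGD1564425 in the file and described as similar to Psmb3, read -0.01, and probes of such copies may bind the transcripts of both.

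Of the 6 ATPases of the regulatory particle, which unfold substrates, 5 lay above 0, with a median of 0.11. Psmc3 was the highest of all members, with 12.57 in the propolis pool and 12.11 in the saline pool, a difference of 0.46 or 1.38-fold. Psmc6 had 12.46 in the propolis pool and 12.11 in the saline pool, 1.27-fold higher (0.35), and a second probe read 0.28. These were the 2 members higher by 0.32 log2 units or more, against 17.8% of all genes. The lowest ATPase was Psmc5, with 14.20 in the propolis pool and 14.22 in the saline pool (-0.02).

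Among the 10 measured non-ATPase subunits, which hold the ubiquitin receptors and the deubiquitinase of the lid, 8 lay above 0 and the median was 0.11. The ubiquitin receptor gene Psmd4 was highest, with 12.78 in the propolis pool and 12.56 in the saline pool (0.22). The lid subunit gene Psmd13 was lowest, with 9.41 in the propolis pool and 9.55 in the saline pool (-0.14). Psmd14, the deubiquitinase that removes the ubiquitin chain before degradation, differed by 0.19, and the large scaffold genes Psmd1 and Psmd2 by 0.12 and 0.10. Psmd11 had no probe under its symbol, and a probe that the file describes as non-ATPase subunit 11 read 11.10 in the propolis pool and 11.01 in the saline pool (0.09).

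The chaperones that help to assemble the complex were also above 0. The base chaperone gene Psmd9 differed by 0.28 (13.19 in the propolis pool and 12.91 in the saline pool), Psmd10, which encodes gankyrin, by 0.26, and Psmd5 by 0.06. Of the core chaperones, Psmg2 differed by 0.28 (8.06 in the propolis pool and 7.78 in the saline pool), Psmg4 by 0.07 and Psmg1 by 0.01. The symbols Psmg3, Psmf1 and Psma8 were not found in the file. Under another name, LOC689852, the gene now called Psmf1, a modulator of proteasome activity, read 11.52 in the propolis pool and 11.35 in the saline pool (0.17). The gene now called Psma8, a testis-specific alpha subunit, was listed as RGD1311659 and was detected on neither array.

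The remaining activators lay on opposite sides of 0. Psme4, which encodes the nuclear activator PA200, had 10.63 in the propolis pool and 11.15 in the saline pool, a difference of -0.52 or 1.43-fold lower, and a second probe read -0.38. It was the lowest member outside the catalytic immune subunits and the only other one lower by 0.32 log2 units or more, against 18.4% of all genes. Psme3, which encodes the nuclear activator PA28 gamma, had 10.75 in the propolis pool and 10.53 in the saline pool (0.21). Psmc3ip matched the rule by its name but encodes a recombination protein and no part of the proteasome. It read 7.14 in the propolis pool and 6.91 in the saline pool (0.23).

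**Figure D3:**
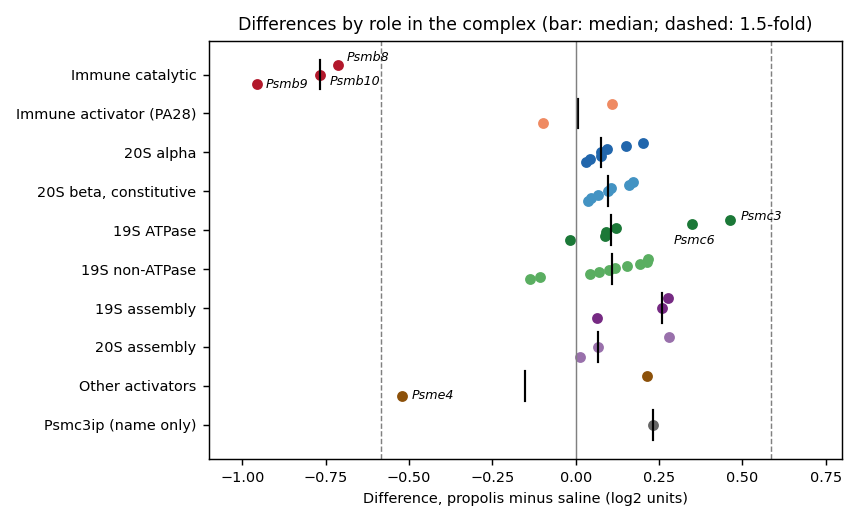
Log2 difference, propolis minus saline, of each measured member (x axis) by role, with 1 point per gene, a black bar at the median of the role and dashed lines at 1.5-fold. Psmb8, Psmb9 and Psmb10 lie beyond the lower line, Psme4 at -0.52 just inside it, and Psmc3 at 0.46 is the highest.

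As groups, the 5 immune genes had a median difference of -0.71 and the 39 other members a median of 0.10, so that the immune median minus the other median was -0.81. Of the other members, 35 of 39 (89.7%) lay above 0, where 52.4% of all genes and 49.9% of those with a mean signal of 11 or more did. Their differences were small: 36 of 39 (92.3%) were less than 0.32 log2 units apart, against 63.9% of all genes and 76.3% of those at the higher signals. The lower and upper quartiles of their differences were 0.05 and 0.20, against -0.21 and 0.23 for all genes. The size of most of these differences is about that of the probe spread of 0.10, which was taken at signals of 11 or more. Some members were dimmer, and over all 2595 genes with at least 2 detected probes the spread was 0.16. Single members near 0.10 are therefore not told apart from no difference, and subunits read on the same 2 arrays are not replicates of each other. With 2 arrays no test of either group could be made.

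**Figure D4:**
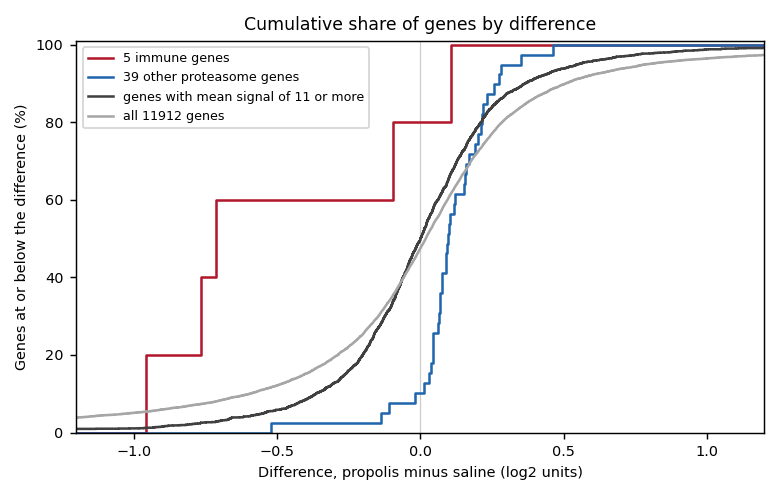
Share of genes (y axis, percent) at or below each log2 difference, propolis minus saline (x axis), for the 5 immune genes, the 39 other members, all genes with a mean signal of 11 or more and all 11912 genes. The curve of the 39 others rises steeply just right of 0, while 3 of the 5 immune genes lie at or below -0.71.

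The genomic neighbours of the immune genes were read after the members' values were known. Psmb8 and Psmb9 are separated by 1 gene, Tap1, in the MHC region of chromosome 20, next to Tap2, in the gene order of GRCr8. Tap1 and Tap2 encode the transporter that carries proteasome products into the endoplasmic reticulum. Tap1 had 7.64 in the propolis pool and 7.87 in the saline pool (-0.23), and Tap2 had 9.89 in the propolis pool and 10.07 in the saline pool (-0.18), both closer to 0 than their proteasome neighbours. RT1-DMa, further along and the editor of class II peptides, differed by -0.92. Psmb10 lies on chromosome 19 beside Lcat, a plasma cholesterol esterifying enzyme gene, which differed by -0.19. Psme1 and Psme2 lie on chromosome 15 with Emc9 between them, which differed by 0.64, and Irf9, a subunit of the interferon factor ISGF3, lies 2 genes beyond Psme2 and differed by -0.09. In the deposited coordinates (build not given in the sources used), the Psmb8 probe spans positions 4787980 to 4788039 and the Psmb9 probe 4806341 to 4806400 of chromosome 20, and the Psmb10 probe 35777711 to 35777770 of chromosome 19.

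Most genes listed as partners of the proteasome leaned the same way as its constitutive subunits. Of 23 listed partners, 18 were measured, and 15 lay above 0, where 52.4% of all genes did. The median of the partners was 0.23, where the median over all genes was 0.02. None was at least 1.5-fold apart, where 10.2% of all genes were lower and 8.07% higher by that much. The ubiquitin receptor gene Adrm1 differed by 0.45 and the deubiquitinase gene Usp14 by 0.37 (0.14 by a second probe). Shfm1, the former symbol of the small lid subunit gene Sem1, differed by -0.39. As a subunit gene whose symbol the rule does not match, Shfm1 is not counted among the members. The maturation factor gene Pomp differed by 0.21 and Nfe2l2, which encodes NRF2, by 0.36, both singled out after their values were seen. Of the 12 genes for ubiquitin and its activation, 8 lay above 0 and the median was 0.02. Uba6, a ubiquitin-activating enzyme gene, was detected in the propolis pool only, 1.70-fold above the lowest detected saline value. Its second probe was detected on neither array. The conjugating enzyme gene Ube2l3 differed by -0.52. Ubb, a polyubiquitin gene, differed by -0.21 (-0.52 by a second probe).

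In each of 3 interferon-linked lists most genes lay below 0, against 47.4% of all genes, and most differed by less than 1.5-fold. All 5 genes of ISG15 conjugation, the interferon-induced ubiquitin-like system, lay below 0 with a median of -0.49. Of these, 1 was at least 1.5-fold lower, against 10.2% of all genes. That gene, Isg15, had 10.52 in the propolis pool and 11.75 in the saline pool (-1.23). Its deconjugating enzyme gene Usp18 differed by -0.57 (-0.66 by a second probe) and the activating enzyme gene Uba7 by -0.49. Of 13 measured genes of class I antigen processing, 11 lay below 0 and the median was -0.28, with 1 gene past 1.5-fold downward (10.2% of all genes) and 1 past it upward (8.07% of all genes). The class I gene RT1-S3 differed by -0.77 (-0.76 by a second probe) and the chaperone gene Calr by -0.49. The aminopeptidase gene Lap3, also interferon-inducible, lay on the other side, with 13.94 in the propolis pool and 13.34 in the saline pool (0.60). Beta-2 microglobulin, B2m, singled out after its value was seen, differed by 0.02.

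The third list held regulators of the interferon response and a few of its targets. Of its 15 measured genes 11 lay below 0, the median was -0.18, and 3 were at least 1.5-fold lower, against 10.2% of all genes. Socs3, a feedback inhibitor, differed by -0.93, the guanylate-binding protein gene Gbp2 by -0.71 and Stat2 by -0.59. Irf1, a known activator of the immune subunits that was singled out afterwards, had 6.22 in the propolis pool and 6.40 in the saline pool (-0.18). Socs1 and Ciita were detected on neither array.

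Most macrophage, general leukocyte and T and NK cell markers were also lower, but not all leukocyte markers were. Of all genes measured, 47.4% lay below 0. All 9 measured macrophage markers lay at -0.42 or below, and the group had a median of -0.67 and a mean log2 signal of 10.90 in the propolis pool and 11.73 in the saline pool. Marco, a scavenger receptor gene, differed by -2.53, Cd163 by -0.77 (-0.11 by a second probe) and Csf1r by -0.69. All 5 measured general leukocyte genes lay below 0, with a median of -0.52 and a mean of 8.85 in the propolis pool and 9.32 in the saline pool, and among them Laptm5 differed by -0.69, Arhgdib by -0.67, Coro1a by -0.52 and Ptprc, the pan-leukocyte antigen CD45, by -0.08 (-0.14 by a second probe). Of 9 measured T and NK cell genes, 8 lay below 0, with a median of -0.46 and a mean of 5.97 in the propolis pool and 6.56 in the saline pool. Lck, a T cell kinase gene, had 4.37 in the propolis pool and 5.85 in the saline pool (-1.48). The granzyme gene Gzmb had 4.36 in the propolis pool and 5.29 in the saline pool (-0.94). Both propolis values lay near 3.83, the lowest value detected on that array. Cd3d differed by -0.88 and Cd3g by 0.21, while Cd3e and Cd2 were detected on neither array. Their part in the differences of Psmb8, Psmb9 and Psmb10 was not tested.

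Among other cell types, 4 of 5 measured endothelial genes lay below 0 (median -0.63), where 47.4% of all genes did. Cdh5 differed by -0.68, Lyve1 by -0.63 (-0.42 by a second probe) and Pecam1 by -0.63. The propolis value of Pecam1, 4.34, lay near 3.83, the lowest value detected on that array. Kdr, the brightest of the measured endothelial genes, lay on the other side, with 14.04 in the propolis pool and 13.94 in the saline pool (0.10). Of 6 stellate cell genes 5 lay above 0 (median 0.26), where 52.4% of all genes did. Reln differed by 0.55, Lrat by 0.48 and Des by 0.26. All 8 hepatocyte genes were detected on both arrays, as the tissue label calls for, with a median of -0.03 and a mean of 15.68 in the propolis pool and 15.74 in the saline pool; Cps1 differed by -0.56, Serpina1 by -0.34 and Ttr by 0.26. Of 5 cholangiocyte genes 3 were measured (median -0.66), with Epcam at 0.67 and Krt19 at -0.66. Spp1 was detected in the saline pool only, 1.31-fold above the lowest detected propolis value. The B cell list had 1 of 5 genes detected, Cd79b, in the propolis pool only and 2.26-fold above the lowest detected saline value. Ms4a1 and Cr2 were detected on neither array. Of 5 dendritic cell genes 3 were measured (median 0.08). Xcr1 was detected in the saline pool only, 3.59-fold above the lowest detected propolis value. Flt3 was detected in the propolis pool only, 1.19-fold above the lowest detected saline value, and its second probe was detected on neither array. Batf3 differed by 0.08.

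**Figure D5:**
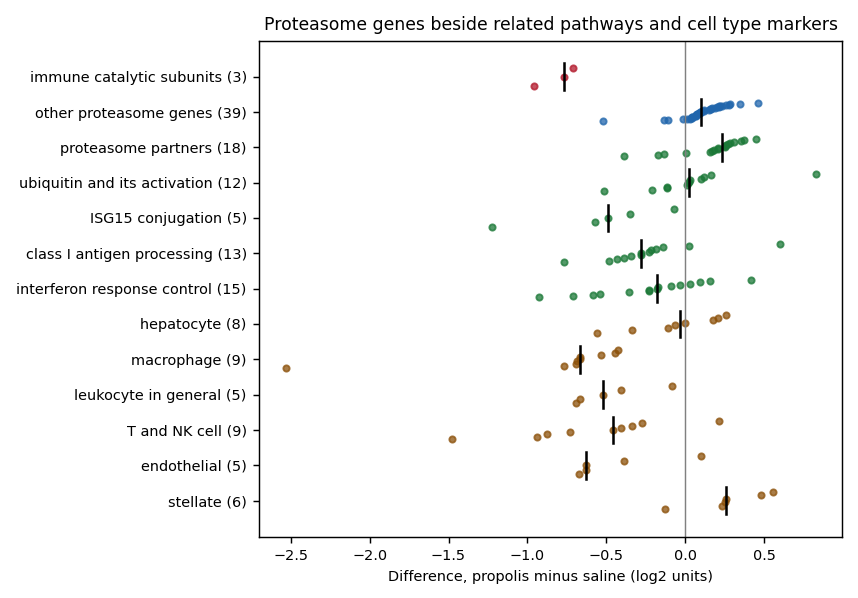
Log2 difference, propolis minus saline (x axis), of the genes of each list, with 1 point per measured gene, the number measured in brackets and a black bar at the median. The medians are -0.77 for the 3 catalytic immune subunits, -0.67 for the macrophage, -0.63 for the endothelial and -0.52 for the general leukocyte genes. They are 0.10 for the 39 other members, labelled other proteasome genes and with Psmc3ip among them, and 0.23 for the proteasome partners.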

How the data were processed

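Each array was hybridised with Cy3-labelled RNA pooled from 6 rats of 1 group, and the RNA had an integrity number above 8.5, per the labels' protocols. The submitters' processing notes name Agilent Feature Extraction 9.5. The authors deposited log2 values for 41012 probes with a detection letter per array, and a linear fold ratio that equals the propolis over the saline signal within 1.84e-07 log2 units. How background and scale were handled was not given in the sources used. After sorting, the columns were at most 0.0255 log2 units apart, as quantile normalization would leave them. For 23054 probes the series matrix repeats these values within 0.005, uncentred and in the same direction, with medians of 7.53 (propolis) and 7.52 (saline). On the propolis array 24380 probes carried P, and on the saline array 24344.

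Gene symbols were those of the table, and a gene's value came from its brightest probe where that probe carried P on at least 1 array. With 1 array per group no p-value was computed, and genes were counted at 1.5-fold. For a gene detected on 1 array, a bound was formed against the higher of the dim value and the lowest detected value of that array. It is no strict bound, since a probe can read above that lowest value without being detected. A second Uba6 probe did so at 4.24 on the propolis array. The naming rule took the immune genes and their counterparts, the highest and lowest member of each role, and up to 3 members of each of 14 related gene or cell type lists furthest from 0; other members are given by count or singly. Members and lists were chosen with earlier results of these data known. Some list genes are not reported here and are left out of their lists. The counting was run on simulated data with planted 2-fold changes and small noise. That checks the counting step only and says nothing about the spread in these data. Software was Python 3.11.15, pandas 2.3.3, numpy 2.4.6 and statsmodels 0.14.6. Precision is limited by the number of arrays.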

Additional observations from a re-analysis of the deposited data

Results flagged for a closer look

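One probe outside the rule was detected in the propolis pool and not in the saline pool. The file gives it no symbol and describes it as similar to Psmc6 (RGD1559647). It read 4.35 in the propolis pool and 1.77 in the saline pool. Against the lowest detected value of the saline array, the propolis value was 0.52 log2 units, or 1.44-fold, higher. That is no strict bound, since the probe of Armcx3 read 4.41 on the saline array without being detected. It was singled out because it is a signal in data that the comparison of members does not use. Its propolis signal is close to 3.83, the lowest value detected there.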

How the results depend on the processing

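No paired analysis was possible because each group has 1 array. Centring on array medians, 75th percentiles or by loess (span 0.3), the values of the series matrix, detection required on both arrays or not at all, the mean or median probe of a gene, 50 signal units added and updated symbols each left the 3 members at least 1.5-fold lower and none at least 1.5-fold higher. Several of these settings could not have moved the immune genes. Both arrays had the same median (5.07) and 75th percentile (7.94), so those 2 centrings shifted nothing. Detection on both arrays dropped none of the 44 members. Each of the 5 immune genes had 1 probe, and the series matrix repeats the same values rounded. Over all of the settings the median of the 5 immune genes ran from -0.72 to -0.70. That of the other members ran from 0.0951 to 0.104, and their gap from -0.83 to -0.80. At 2-fold, 0 members were lower, and at a threshold of 0.32 log2 units, 4 were lower and 2 higher. The mean in place of the median gave -0.48 for the 5 immune genes and a gap of -0.59, since Psme1 and Psme2 lie near 0. With the catalytic subunits alone, a choice made after seeing the data, the gap was -0.86, and with the others kept to 20S and 19S subunits it was -0.81. No alternative changed the sign of a difference for Psmb8 (-0.72 to -0.70), Psmb9 (-0.96 to -0.95) or Psmb10 (-0.77 to -0.76). The file marks no saturated spots, and no signal over background is given.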

Other observations

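Of 11 probes that the file describes as proteasome parts or related proteins but that carry no symbol matching the rule, 9 were detected on at least 1 array and 8 on both. The 8 differed by -0.10 to 0.21 log2 units, with a median of 0.12. A probe described as similar to Psma3 (LOC100365943) differed by 0.03 (11.31 in the propolis pool and 11.28 in the saline pool), and one described as similar to non-ATPase subunit 8 by 0.15 (10.78 in the propolis pool and 10.64 in the saline pool). These probes were found by their description after the data were seen.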
